A study of Mus musculus with 15 samples.

Results

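The genes described here are 38 genes of the cell cycle, 9 that act in G1, 11 in S phase and 18 in mitosis, measured in mouse lung after 6 h of mechanical ventilation. The list held 39 genes by name. A gene was taken where a probe of the array carried its symbol and no other, and of several such probes the one with the highest mean level over all 15 arrays was used. Ccnb1 had no such probe, so 38 of the 19934 genes with a probe of their own entered. Lungs came from male C57BL/6N mice of 24 to 26 g, all under ketamine (90 mg/kg) plus acepromazine (1 mg/kg) anaesthesia, with a catheter in an artery and a tube in the trachea. Control mice breathed synthetic air on their own for 6 h, the air ventilated mice received synthetic air from a ventilator at a tidal volume of 12 ml/kg with a PEEP of 2 cmH2O, and the H2S ventilated mice received the same with 80 ppm H2S. Each group held 5 mice with 1 array per mouse, made from total RNA of the inferior right lobe. A group of mice that breathed H2S without a ventilator was not analysed here.

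Cells enter the cycle when D-type cyclins, bound to Cdk4 or Cdk6, phosphorylate the pocket proteins and release E2F factors. E2F factors then switch on the genes for replication, such as the MCM helicase. Genes of mitosis follow later, and the MuvB complex (Lin9, Lin37, Lin52, Lin54 and Rbbp4) takes part in both their repression in resting cells, as the DREAM complex with the pocket proteins Rbl1 or Rbl2, and their activation with Mybl2 and Foxm1. MuvB binds a short element named CHR, while NF-Y binds CCAAT boxes nearby. Most cells of the adult lung are at rest, and a whole lobe holds epithelium, endothelium, connective tissue and blood cells together. In such bulk tissue, fewer cells of a type and less RNA per cell cannot be told apart.

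The promoters show what the mitosis genes share beside their function. Of the 38 genes, 29 had a window in the RefSeq promoter sequences of the GRCm38.p6 build, each window being 300 bases long and spanning the start of the gene. Both strands were searched for CCAAT, for the CHR forms TTTGAA and TTCGAA, and for the E2F forms TTTCCCGC, TTTGGCGC and TTTCGCGC. A CCAAT box was present in 11 of 13 mitosis genes, 7 of 10 S genes and 2 of 6 G1 genes, against 37.4% of all 32851 windows. TTTGAA or TTCGAA was present in 10 of 13 mitosis genes, 2 of 10 S genes and 0 of 6 G1 genes, against 19.2% of all windows. The E2F forms were distributed the other way, in 6 of 10 S genes (Cdc6, Cdt1, Mcm3, Mcm5, Mcm6 and Mcm7), 1 of 6 G1 genes (Cdk2) and 1 of 13 mitosis genes (Cdk1), against 1.84% of all windows. A gene with several windows was counted where any of them matched, whereas the share of all windows counts each window. The 32851 windows belonged to 27025 genes, so the 2 measures are not quite alike. A match describes the letters in a window and is not a measured binding site. Below are 3 mitosis genes whose levels are described further on, the cyclin gene Ccnb2 (chr9:70421505-70421804, minus strand), its kinase partner Cdk1 (chr10:69352863-69353162, minus strand) and the kinase gene Plk1 (chr7:122159185-122159484, plus strand), and for contrast Mcm6, an S phase helicase subunit (chr1:128359656-128359955, minus strand). Capitals mark the letters searched, read 5′ to 3′ along the gene, with a box on the other strand appearing as its complement. In Mcm6 a TTTGGCGC and a TTTCGCGC on opposite strands overlap and form 1 run of capitals.
Ccnb2: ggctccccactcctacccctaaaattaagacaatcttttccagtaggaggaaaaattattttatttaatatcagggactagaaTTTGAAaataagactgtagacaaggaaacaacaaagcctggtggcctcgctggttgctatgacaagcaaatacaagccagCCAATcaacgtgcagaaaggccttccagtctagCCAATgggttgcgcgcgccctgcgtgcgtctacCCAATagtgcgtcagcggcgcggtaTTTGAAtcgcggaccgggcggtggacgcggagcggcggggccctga
Cdk1: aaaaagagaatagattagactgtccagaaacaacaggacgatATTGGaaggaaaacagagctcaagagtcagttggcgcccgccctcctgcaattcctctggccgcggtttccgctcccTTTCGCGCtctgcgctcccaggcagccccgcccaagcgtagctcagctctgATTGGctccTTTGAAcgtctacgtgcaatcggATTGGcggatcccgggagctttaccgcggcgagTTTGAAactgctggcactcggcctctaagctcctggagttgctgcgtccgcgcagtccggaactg
Plk1: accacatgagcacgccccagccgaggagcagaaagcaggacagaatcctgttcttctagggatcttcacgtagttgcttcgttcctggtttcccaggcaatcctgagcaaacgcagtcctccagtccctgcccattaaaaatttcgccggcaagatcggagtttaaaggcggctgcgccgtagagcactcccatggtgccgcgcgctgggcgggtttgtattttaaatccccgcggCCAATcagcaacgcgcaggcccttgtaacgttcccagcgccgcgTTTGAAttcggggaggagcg
Mcm6: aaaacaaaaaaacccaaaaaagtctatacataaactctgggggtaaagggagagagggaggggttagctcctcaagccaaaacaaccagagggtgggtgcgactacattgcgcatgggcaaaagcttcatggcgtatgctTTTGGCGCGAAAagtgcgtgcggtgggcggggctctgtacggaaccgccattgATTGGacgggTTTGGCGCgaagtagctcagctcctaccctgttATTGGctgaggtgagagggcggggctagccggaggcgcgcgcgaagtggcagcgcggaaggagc

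The arrays had median intensities between 179 and 187. The authors' quantile normalization draws such medians together, so they do not show how alike the samples were. Lung markers were present in every mouse. The alveolar type II cell markers summed to intensities of 61400 to 64778 in control, 62701 to 65796 in air ventilated and 62921 to 65859 in H2S ventilated mice. Markers of some blood cells moved between groups. B cell markers summed to 5562 to 9446 in control mice, 2383 to 5366 with air and 2228 to 4229 with H2S, and neutrophil markers to 12102 to 17151, 17412 to 24625 and 17249 to 28528. T and NK cell markers, at 3891 to 6291, 2299 to 6371 and 2390 to 4571, overlapped with control. Alveolar macrophage markers summed to 4691 to 5233 in control, 5606 to 6415 with air and 6224 to 7174 with H2S. Those of fibroblasts and smooth muscle summed to 15594 to 19690, 13604 to 16800 and 13994 to 15766. Not all 11 cell type lists are given here. The part of these cells in any difference of the cell cycle genes was not tested. The second number in each mouse's label ran from 1 to 12 in 3 mice per group and from 20 to 28 in the other 2, and its meaning was not stated in the sources.

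No cell cycle gene of the 38 passed the test after ventilation. The test was limma across all 28361 probes on log2 intensities, with a Benjamini-Hochberg adjusted p below 0.05 counted as passing. Between air ventilated and control mice 0 of 38 passed, against 3.44% of all probes. Between H2S ventilated and control mice 0 of 38 passed, against 7.86%. Between the ventilated groups 0 of 38 passed, against 0.0776%. At an unadjusted p below 0.05, 5 of 38 differed with air (14% of all probes), 8 with H2S (20.7%) and 0 between the ventilated groups (5.68%). CyberT, the regularised t-test of the study's methods, called 2 genes with air (5.7% of all probes), 0 with H2S (9.22%) and 0 between the ventilated groups (0.504%). The study's methods add an effect size of 1.7 to limits on p, which was taken here as a fold. By this rule 0 of 38 passed in each comparison, against 0.959%, 1.45% and 0.0599% of all probes. The lowest adjusted p values by limma were 0.0613 with air, 0.0698 with H2S and 0.913 between the ventilated groups.

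The intervals around the differences bound the change if each gene has 1 SD shared by the 3 groups, as the fit assumes. In each of the 3 comparisons, the 95% intervals of all 38 genes lay within a fold of 2 in either direction, as did those of 97.3%, 96.7% and 98.8% of all probes. Within a fold of 1.5 lay 35 genes with air, 34 with H2S and 37 between the ventilated groups, against 87.5%, 84.3% and 90.6% of all probes. The mitosis genes did not share 1 SD, with a median SD of 0.12 in control, 0.30 with air and 0.31 with H2S. Their intervals between the ventilated groups may therefore be too narrow. Median log2 differences from control were -0.08 in G1, -0.03 in S and -0.02 in mitosis genes with air, and -0.04, 0.01 and 0.09 with H2S. When each mouse was left out, those of mitosis genes ran from -0.12 (without 6_2) to 0.03 (without 12_10) with air and from 0.02 (without 1_4) to 0.16 (without 9_12) with H2S. The S medians changed sign in both comparisons and the G1 median in that with H2S, to 0.03 without 4_8. The median over all 38 was -0.03 with air and 0.07 with H2S. In the plot of all differences, the G1 genes lay on both sides of 0. Most mitosis genes lay close to 0 with wider intervals, but Bub1 with air was at -0.36 and Nusap1 with H2S at 0.29.

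**Figure D1:**
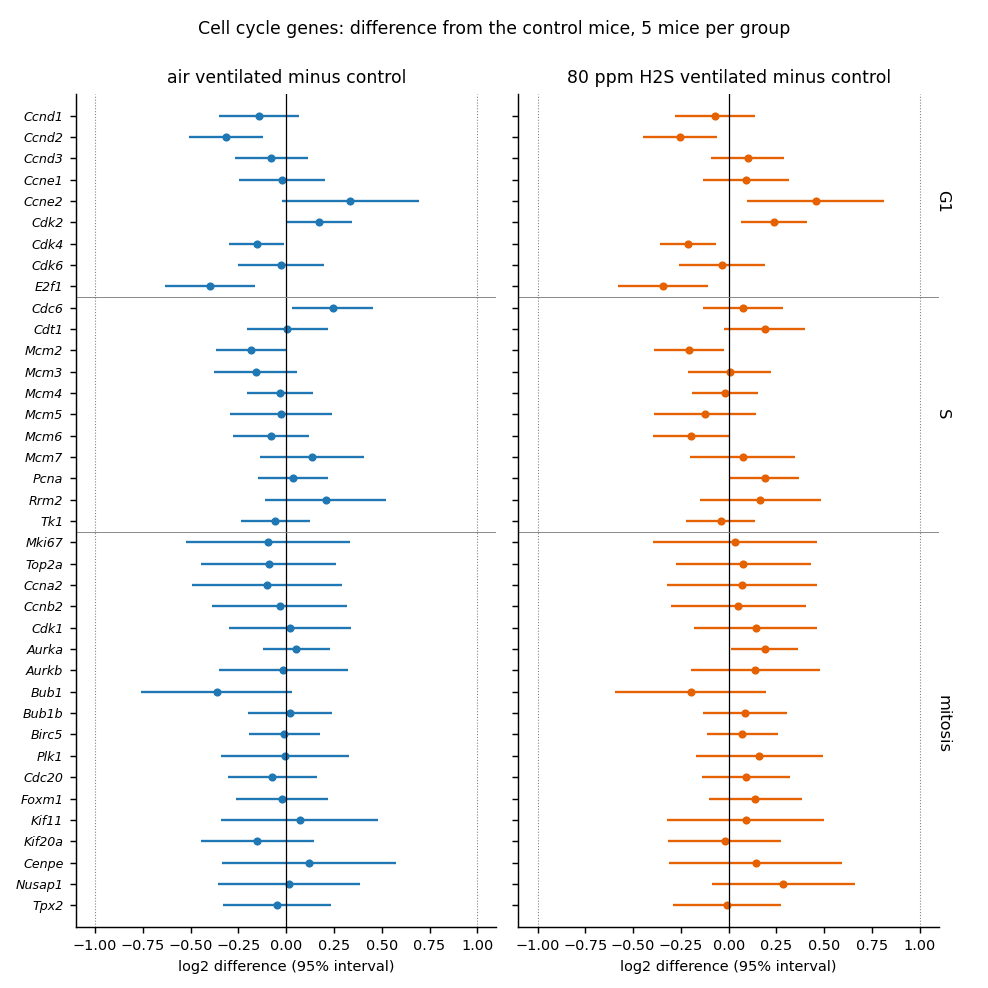
Log2 difference of each of the 38 genes from the control mice (horizontal axis) with air (left, blue) and with 80 ppm H2S (right, orange), 5 mice per group; points are limma estimates, lines their 95% intervals, and dotted lines mark a fold of 2. All intervals lie between the dotted lines, and no gene passed the adjusted test.

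Among the G1 genes, the lowest p values belonged to E2f1, Ccnd2 and Cdk4. E2f1 encodes the E2F factor that drives replication genes. Its intensity was 316, 296, 412, 309 and 310 in the control mice, 249, 225, 230, 282 and 254 with air, and 204, 291, 248, 287 and 265 with H2S. All 10 ventilated mice lay below all 5 controls, and the control of 412 stood above the other 4. The log2 difference was -0.40 (limma adjusted p = 0.0613) under air ventilation and -0.34 (adjusted p = 0.0703) under H2S ventilation, both with an SE of 0.11. Within the mice numbered 1 to 12 it was -0.49 and -0.45, and within those numbered 20 to 28 -0.27 and -0.19. Cdk4 encodes the kinase partner of the D cyclins. It read 3272, 3241, 3849, 3481 and 3249 in control, 3026, 3011, 2980, 3124 and 3188 with air, and 2777, 3007, 2927, 3224 and 2807 with H2S. Its groups also did not overlap with control, with log2 differences of -0.15 (adjusted p = 0.305) and -0.21 (adjusted p = 0.0698). Groups that did not overlap with control were found for 2 of 38 genes with air, against 5.55% of all probes, and for 3 of 38 with H2S, against 8.2%; between the ventilated groups there were 0, against 1.2%. The third was Cdk2, the partner of the E cyclins, at 266 to 325 in control mice and 329 to 379 with H2S (log2 difference 0.24, limma adjusted p = 0.0896).

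Ccnd2, a D-type cyclin, read 2004, 1786, 1643, 1828 and 2125 in control, 1306, 1431, 1552, 1828 and 1451 with air, and 1502, 1647, 1521, 1613 and 1567 with H2S. The groups overlapped, since the lowest control lay below the highest mouse of each ventilated group. Its log2 difference was -0.31 (limma adjusted p = 0.0764) for air and -0.25 (adjusted p = 0.11) for H2S, each with an SE of 0.09. The other D cyclins had log2 differences of -0.14 (Ccnd1) and -0.08 (Ccnd3) with air and -0.07 and 0.10 with H2S. Ccne2, an E cyclin, had the largest difference of the 38 in log2 terms with H2S, 0.46 (adjusted p = 0.122), but its level was below 92.4, the intensity under which 95% of 1210 odorant and pheromone receptor probes lay. Such receptors serve as a measure of background in lung. Cdc6 and Cenpe were the other members below it.

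**Figure D2:**
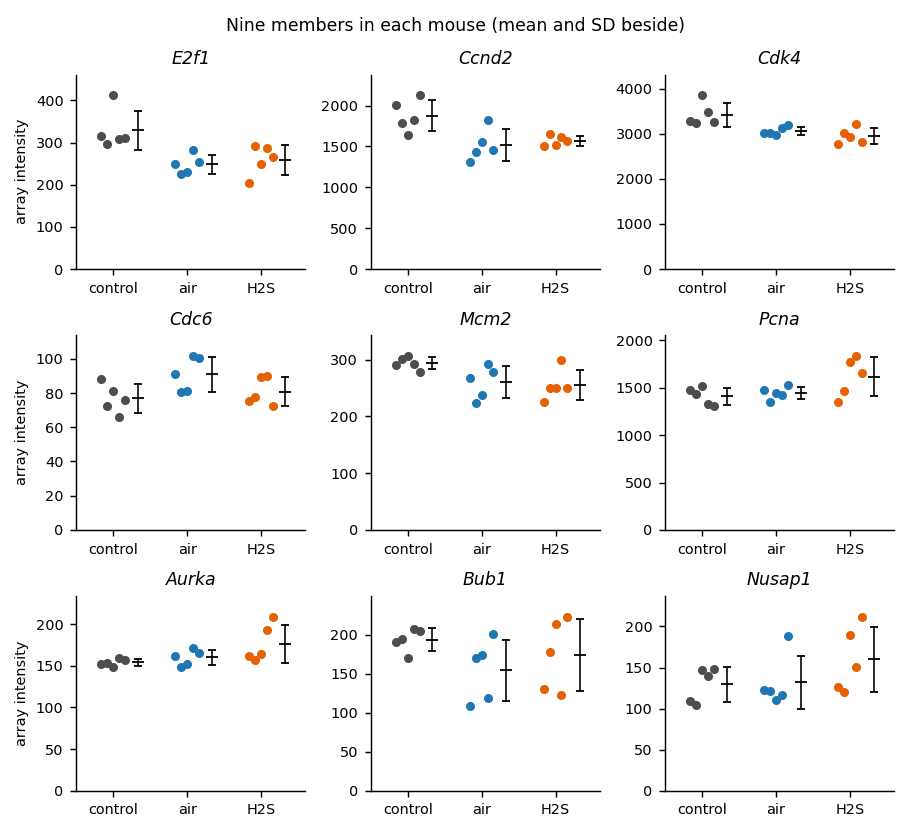
Array intensity (vertical axis, from 0) of 3 G1 genes (top), 3 S genes (middle) and 3 mitosis genes (bottom) in each mouse of the control, air ventilated and 80 ppm H2S ventilated groups; points are mice, bars beside them the mean and SD of 5. E2f1 and Cdk4 in ventilated mice lie below all controls. Bub1 spreads widely in both ventilated groups and Nusap1 with H2S. With air, only mouse 6_2 stands apart for Nusap1.

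The S phase genes stayed near the control level. Mcm2, a subunit of the MCM helicase, read 290, 301, 306, 292 and 278 in control, 268, 224, 237, 292 and 278 with air, and 226, 250, 250, 300 and 251 with H2S. The groups overlapped, and the log2 differences were -0.18 and -0.21 (SE 0.09 each, limma adjusted p = 0.368 and 0.179). Pcna, the sliding clamp of the polymerase, read 1472, 1431, 1514, 1330 and 1310 in control, 1477, 1353, 1444, 1429 and 1533 with air, and 1347, 1468, 1771, 1833 and 1661 with H2S. With H2S, 3 mice lay above all controls and 2 among them, at a log2 difference of 0.19 (SE 0.09, adjusted p = 0.225). Cdc6, which loads the helicase and lay in the background range, read 66.3 to 88.3 in control, 80.6 to 101.6 with air and 72.2 to 90.2 with H2S (log2 differences 0.24 and 0.08, adjusted p = 0.25 and 0.765). The other MCM subunits had log2 differences from control between -0.20 (Mcm6 with H2S) and 0.14 (Mcm7 with air). The second probe of Tk1, the thymidine kinase of S phase, gave -0.29 with air and -0.17 with H2S where the probe used gave -0.06 and -0.04.

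Most mitosis genes had group means near control but differed widely from mouse to mouse under ventilation. Nusap1, a spindle protein gene, read 109, 105, 147, 139 and 148 in control, 122, 121, 111, 117 and 189 with air, and 127, 121, 190, 151 and 211 with H2S. The mouse at 189 with air and those at 190 and 211 with H2S stood above all controls and the rest lay among or just above them. The log2 difference against control was 0.01 for air and 0.29 for H2S (SE 0.18 each, limma adjusted p = 0.992 and 0.41). Bub1, a kinase of the spindle checkpoint, read 191, 194, 170, 207 and 204 in control, 108, 170, 174, 119 and 200 with air, and 130, 178, 213, 122 and 222 with H2S. Control mice lay close together. Air ventilated mice lay below or among them, and H2S ventilated mice ranged from below to above them. The log2 differences were -0.36 and -0.20 (SE 0.19 each, limma adjusted p = 0.419 and 0.641). Aurka, the kinase of the spindle poles, varied less, between 148 and 160 in control, 149 and 171 with air and 157 and 209 with H2S (log2 differences 0.05 and 0.19, adjusted p = 0.901 and 0.198).

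The same mice were high across the mitosis genes. Top2a, the topoisomerase that untangles chromosomes, read 161, 153, 160, 160 and 166 in control, 132, 139, 131, 138 and 230 with air, and 127, 159, 209, 144 and 224 with H2S. Ccna2, the A-type cyclin, read 217, 217, 210, 181 and 214 in control, 166, 155, 164, 195 and 328 with air, and 161, 206, 265, 201 and 278 with H2S. For both genes 4 of 5 air ventilated mice lay below at least 4 of the controls and 1, labelled 6_2, lay far above them, while with H2S the mice labelled 27_28 and 1_4 were above all controls. Ccnb2, whose promoter is printed above, read 340 to 406 in control mice, 559 in 6_2, 477 in 27_28 and 469 in 1_4. Plk1 read 158 to 201 in control and 260, 218 and 279 in these mice. Cdk1 read 207 to 251 in control and 330, 247 and 335, so for Cdk1 mouse 27_28 lay among the controls. These genes were picked after their values were seen.

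**Figure D3:**
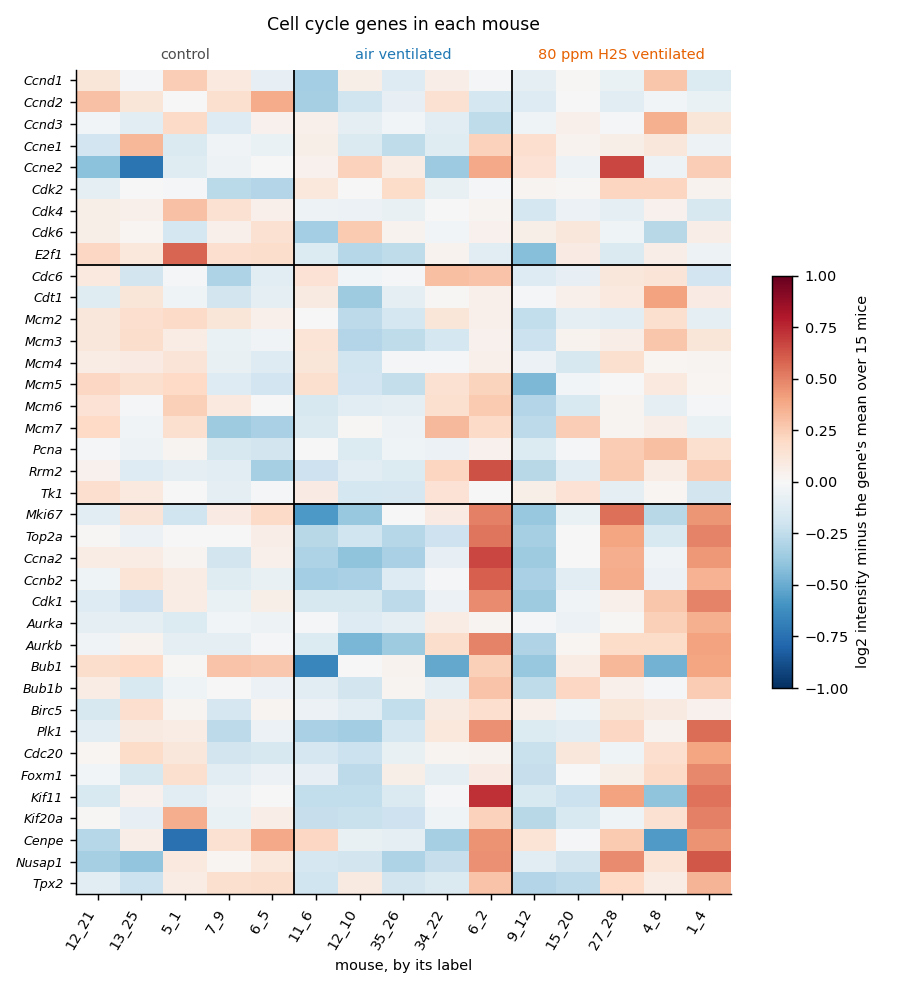
Log2 intensity of each of the 38 genes (vertical axis, grouped as G1, S and mitosis) in each of the 15 mice (horizontal axis, by label), as the deviation from the gene's mean over all mice; red is above and blue below it. The columns 6_2, 27_28 and 1_4 are red through most mitosis genes, while most fields of the control columns are pale.

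Averaged over the 18 mitosis genes, the deviation of a mouse from the mean of all mice spanned -0.07 to 0.05 on the log2 scale in control, -0.21 to 0.37 with air and -0.22 to 0.42 with H2S. Mice 6_2 and 1_4 were above the mean in 18 of 18 genes and 27_28 in 16, whereas 11_6 was above it in 1 and both 12_10 and 9_12 in 2. The SD among 5 mice was larger in both ventilated groups than in control for 15 of 18 mitosis genes, against 31% of all probes, for 8 of 11 S genes and for 2 of 9 G1 genes. Taken singly, it was larger for 16 of 18 mitosis genes with air (43.8% of all probes) and for 16 with H2S (51.2%). The median SD of the mitosis genes was 0.12 in control, 0.30 with air and 0.31 with H2S, where that over all genes was 0.16, 0.15 and 0.16. For Top2a it was 0.04, 0.35 and 0.35. With air the larger spread rested on mouse 6_2, without which the median SD was 0.13 and the count 10 of 18. Without 1_4 the median SD with H2S was 0.25 and the count stayed at 15. No test of these spreads was made, and the 18 genes are not independent of each other.

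The mitosis genes and the S genes also moved together, each among themselves, while the G1 genes did not. Over the 15 mice, after each group's mean was removed, the median correlation between pairs was 0.61 for the mitosis genes (147 of 153 pairs above 0), 0.55 for the S genes (52 of 55 pairs) and -0.07 for the G1 genes (16 of 36 pairs). The median correlation of the mitosis genes with the 19824 other genes was -0.01. With the number sets of the labels removed as well, that among the mitosis genes was 0.64. Without both 6_2 and 1_4 it was 0.34, with 123 of 153 pairs above 0. These are descriptions over mice that share their arrays across all genes. Of the cell type markers, those of T and NK cells deviated by 0.57 in mouse 6_2, 0.25 in 27_28 and 0.13 in 1_4, and by -0.60 in 12_10, -0.56 in 9_12 and -0.37 in 11_6. They also deviated by 0.58 in the control mouse 13_25, whose mitosis genes deviated by -0.01. Neutrophil markers deviated by 0.08 in 6_2, 0.45 in 27_28 and 0.55 in 1_4. In 12_10, 9_12 and 11_6 they deviated by 0.01, -0.26 and 0.35. In the air ventilated mouse 35_26, whose mitosis genes deviated by -0.15, they deviated by 0.38. Monocyte markers deviated by -0.18 in 6_2, -0.16 in 27_28 and 0.33 in 1_4. For 12_10, 9_12 and 11_6 the values were -0.53, -0.34 and -0.34. B cell markers deviated by -0.30, -0.52 and -0.05 in 6_2, 27_28 and 1_4. For 12_10, 9_12 and 11_6 the values were -0.84, -0.92 and -0.47. The remaining cell type lists are not given here. The part of these cells in the spread was not tested.

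The direct comparison of the ventilated groups gave small differences of 1 sign in mitosis genes. All 18 were higher with H2S than with air, by log2 differences of 0.02 to 0.27 with a median of 0.13, and none had an unadjusted p below 0.05. The median was 0.06 without 1_4, 0.23 without 6_2 and 0.23 without 9_12, its range when each mouse was left out. As the genes rise and fall together in the same mice, 18 genes are not 18 observations. The G1 genes had a median of 0.06 and the S genes of -0.03, which ran from -0.08 (without 12_10) to 0.02 (without 6_2) when each mouse was left out.

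**Figure D4:**
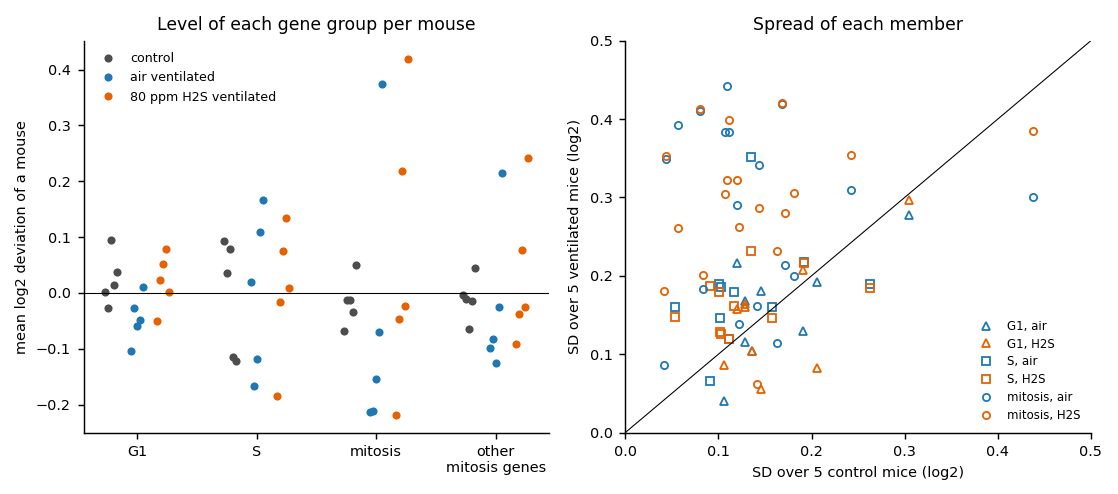
Left, mean log2 deviation of each mouse (points) from the mean of all mice over the G1, S and mitosis genes and over 72 other mitosis genes; right, the SD of each of the 38 genes over 5 ventilated mice against that over 5 control mice, with a line where they are equal. Control mice lie close to 0 for mitosis genes, and most mitosis genes lie above the line.

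Of 75 other mitosis genes outside the 38, such as condensin, kinetochore and kinesin genes, 72 were measured. Their mean deviation spanned -0.06 to 0.04 in the controls, -0.13 to 0.21 under air and -0.09 to 0.24 under H2S ventilation, with 6_2 and 1_4 again the highest. Of these, 1 rose and 1 fell in each comparison with control, against the 3.44% and 7.86% of all probes that passed with air and with H2S. Wee1, the kinase that holds Cdk1 inactive, read 541, 398, 511, 398 and 405 in control, 940, 747, 714, 535 and 760 with air, and 1244, 837, 868, 1211 and 1027 with H2S. All H2S ventilated mice and 4 of 5 air ventilated mice were above every control. On the log2 scale it rose by 0.70 under air ventilation and by 1.20, a fold of 2.29, under H2S ventilation (SE 0.15 each, limma adjusted p = 0.0153 and 0.000305). Ncaph, a condensin subunit, read 223, 225, 255, 242 and 241 in control, 153, 141, 145, 182 and 177 with air, and 158, 177, 185, 172 and 177 with H2S. Every ventilated mouse was below every control, and the log2 difference was -0.58 and then -0.45 (SE 0.08 each, adjusted p = 0.00198 and 0.00318).

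Genes past the test were found among the pocket proteins, E2F partners and MuvB subunits. Of 17 measured, 3 rose and 1 fell with air (3.44% of all probes passed in either direction), and 4 rose and 1 fell with H2S (7.86%). Lin9, a core subunit of MuvB, read 114, 109, 97.3, 88.7 and 83.5 in control, 152, 148, 154, 129 and 144 with air, and 174, 153, 175, 162 and 159 with H2S. Every ventilated mouse was above every control. Its rise on the log2 scale was 0.57 for air and 0.75 for H2S (SE 0.09 each, limma adjusted p = 0.00327 and 0.000232). Within the mice numbered 20 to 28 the difference was 0.33 and 0.56. Lin52 rose by 0.40 with air and 0.34 with H2S. Lin54, the subunit that contacts the CHR, read 359 to 445 in control and 507 to 562 with H2S, and rose by 0.43 (adjusted p = 0.00162); with air its difference was 0.22 (adjusted p = 0.121). Lin37, another MuvB subunit, did not pass, with differences of 0.06 with air and 0.17 with H2S (limma adjusted p = 0.885 and 0.299). Mybl2, Tfdp1, Rb1 and Rbl2 did not pass in either comparison. Tfdp2, a dimer partner of E2F factors, rose by 0.46 with air and 0.49 with H2S. Rbl1, the pocket protein p107, read 389, 410, 405, 425 and 529 in control, 278, 313, 308, 333 and 296 with air, and 247, 352, 345, 274 and 315 with H2S. Every ventilated mouse was below every control, and the log2 difference was -0.49 for air and -0.50 for H2S (SE 0.11 each, adjusted p = 0.0161 and 0.0084).

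Of 13 measured genes on the list named antiproliferative, 2 passed as higher with air (3.44% of all probes passed) and 3 with H2S (7.86%). None passed as lower, although 4 differences with air and 3 with H2S were below 0. Sesn3, a further sestrin, differed by -0.24 with air and -0.20 with H2S (limma adjusted p = 0.113 and 0.145). Gas1 differed by -0.19 and -0.25 (limma adjusted p = 0.294 and 0.0828). Sesn2, a stress-responsive sestrin, read 386, 359, 421, 352 and 351 in control, 472, 495, 558, 459 and 499 with air, and 594, 655, 698, 754 and 514 with H2S. All ventilated mice were above all controls, and the rise was 0.41 for air and 0.77 for H2S (SE 0.10 each, limma adjusted p = 0.0283 and 0.000312). With runs of 4 label numbers as a replicate block, the call with air was lost (limma adjusted p = 0.074). Sesn1 rose by 0.48 with air (adjusted p = 0.035), while its difference with H2S was 0.25 (adjusted p = 0.256). With H2S, Tob1 rose by 0.36 and Tob2 by 0.32 (adjusted p = 0.0148 and 0.0421). The call of Tob2 was lost in 17 of 28 alternatives, among them that block (limma adjusted p = 0.0758), and that of Sesn1 with air in 11. Of 7 measured CDK inhibitors, 0 passed with air and 1 with H2S, against the same shares of all probes. It was Cdkn2d (0.34, adjusted p = 0.0435), read as 123 to 150 in control and 156 to 218 with H2S, and its call was lost in 14 of 28 alternatives.

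Among 42 measured replication genes outside the 38, 1 passed in each comparison with control, against 3.44% of all probes with air and 7.86% with H2S. Dbf4, the activator of the kinase that fires replication origins, read 165, 142, 164, 177 and 170 in control, 184, 199, 179, 180 and 221 with air, and 258, 197, 271, 238 and 278 with H2S. Every ventilated mouse was above every control, and the rise with H2S was 0.59 (SE 0.10, limma adjusted p = 0.00172). With air the difference was 0.23 (adjusted p = 0.273). Rfc3, a subunit of the clamp loader, fell by 0.32 with air (adjusted p = 0.035), a call lost in 13 of 28 alternatives, among them CyberT (adjusted p = 0.0626), median centring (0.0512) and runs of 4 label numbers as a replicate block (0.06). Of 13 other G1 and start genes, Myc, the growth factor response gene, alone passed, with H2S, against 7.86% of all probes. It read 353, 398, 310, 265 and 261 in control, 418, 351, 528, 457 and 530 with air, and 533, 817, 966, 935 and 786 with H2S. It rose by 1.34 (SE 0.17, adjusted p = 0.000262), a fold of 2.52, with H2S, and its difference with air was 0.53 (adjusted p = 0.107). No gene of these lists passed in the direct comparison of the ventilated groups, where Myc had a log2 difference of 0.81 (adjusted p = 0.12) and Wee1 of 0.49 (adjusted p = 0.451). Median log2 differences from control were 0.07 and 0.08 (air and H2S) for the pocket protein and E2F list, 0.23 and 0.24 for the antiproliferative list, 0.03 and 0.01 for the CDK inhibitors, -0.02 and -0.02 for the replication list, -0.03 and 0.03 for the mitosis list and 0.09 and 0.09 for the start genes, where the medians over all genes were 0.01 and 0.00. A call with H2S but not with air is therefore not shown to differ between them.

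**Figure D5:**
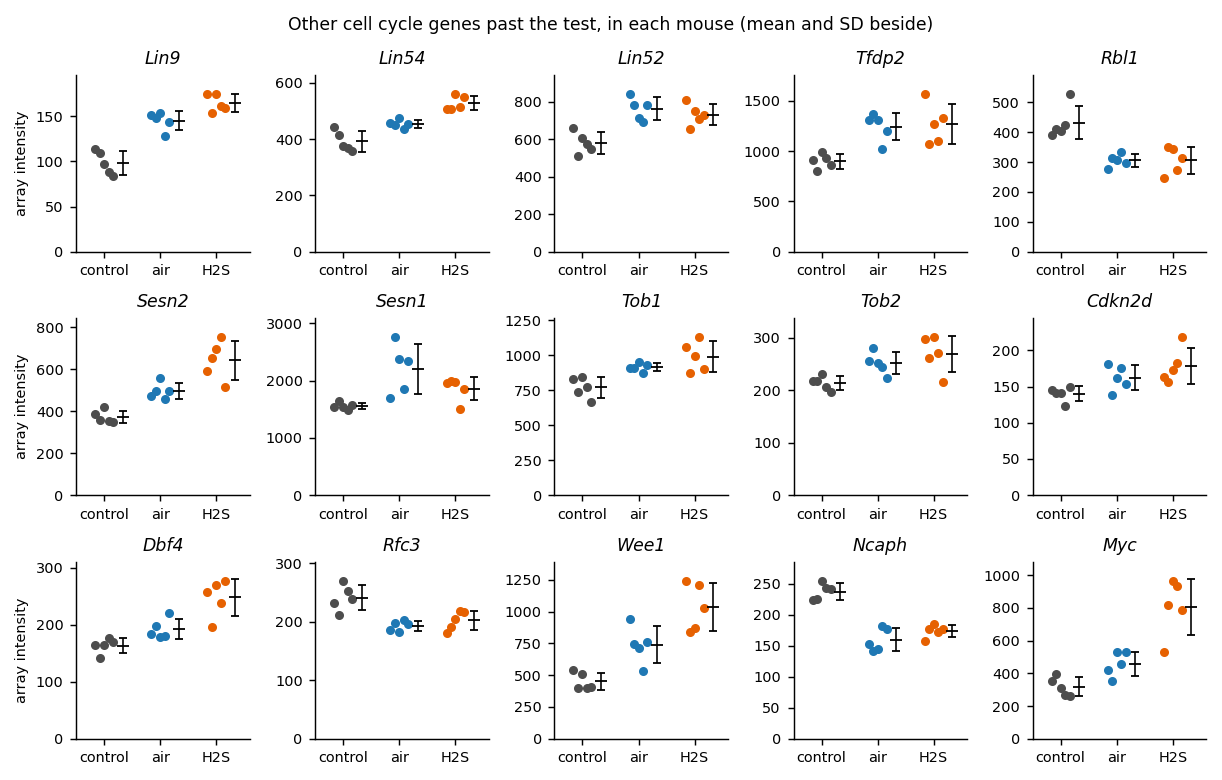
Array intensity (vertical axis, from 0) of 15 cell cycle genes outside the 38 that passed the test in a comparison with control, in each mouse of the control, air ventilated and 80 ppm H2S ventilated groups; points are mice, bars beside them the mean and SD of 5. Lin9, Sesn2 and Dbf4 of ventilated mice lie above all controls, and Rbl1 and Ncaph below.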

How the data were processed

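Total RNA of 15 lung lobes, 5 per group, was measured on biotin-labelled 1-colour arrays. Per the labels, RMA was the authors' normalization. Each deposited value is a linear intensity of 1 probe. The test had been planned for log2 values, so the log2 was taken here. Depth has no counterpart on arrays, and the 5 mice per group limit the precision. Probes were named from the platform annotation: 21780 had 1 symbol, 1617 several and 4964 none. limma 3.58.1 in R 4.3.3 was fitted to all 28361 probes and 15 arrays with 1 mean per group, and p values were adjusted by Benjamini-Hochberg over all probes. In a simulation of the air ventilated and control groups, limma recovered 72.9% of altered probes at a fold of 1.5 and 25.7% at 1.3. For the H2S ventilated and control groups it recovered 67.1% and 25.7%. The altered probes were drawn at random from all probes, with independent noise. Recovery was not simulated for the mitosis genes, whose median SE was 0.16 against 0.10 over all genes. Named members were the 3 of each phase with the lowest p; named pathway genes were those called, up to 5 per list. The members and lists were chosen with earlier results of these data known. Of 172 listed pathway genes 164 were measured. Alternatives were CyberT, array weights, a variance trend, other scalings, dropping dim probes, blocks by label number and leaving out each mouse. Figures were drawn with matplotlib 3.10.9 in Python 3.11.15.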

Additional observations from a re-analysis of the deposited data

Results flagged for a closer look

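In each of 53 genes and 3 groups, the highest or lowest of 5 mice was compared with the rest by its gap to the nearest mouse over the whole range (Dixon's ratio, critical value 0.71). Of 159 such groups 11 passed, where chance gives about 1 in 20. The air ventilated mouse 6_2 was the highest for Top2a (ratio 0.897, intensity 230 against a median of 135 in the other 4), Nusap1 (0.812, 189 against 119), Kif11 (0.755, 236 against 124) and Cdk1 (0.73, 330 against 213). Other mice stood apart for single genes. Among controls, 5_1 was high for E2f1 (0.801, 412 against 309), 7_9 low for Ccna2 (0.825, 181 against 215) and Cdkn2d (0.715, 123 against 143), and 6_5 high for Rbl1 (0.71, 529 against 407). With H2S, 4_8 was high for Cdt1 (0.75, 356 against 281) and low for Sesn1 (0.727, 1510 against 1970), and 9_12 low for Mcm5 (0.771, 236 against 326).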

How the results depend on the processing

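Members passing the test with air numbered 2 by CyberT (5.7% of the probes tested), array weights (6.04%), a variance trend (4.19%), dim probes dropped (6.92%) and an offset of 50 (4.47%), Ccnd2 and E2f1 each time, and 1, E2f1, with quantile normalization again (4.05%) or runs of 4 label numbers as a replicate block (3.02%). With H2S they numbered 3 with array weights (Ccnd2, Cdk2 and Cdk4; 10.6% of probes), 2 with dim probes dropped (Cdk4 and E2f1; 14.9%) and with quantile normalization again (Cdk2 and Cdk4; 9.3%), and 1 with the variance trend (9.11%) or the offset (9.77%), Cdk4, and with runs of 4 as a block (E2f1; 7.63%). The number sets as a replicate block gave 0 in each comparison. There 4.03% of probes passed with air, 9.81% with H2S and 0.162% between the ventilated groups. Leaving out each mouse gave 0 to 2 with air (2 without 34_22, 1 without 5_1 or 9_12; 4.08%, 2.76% and 3.54% of probes) and 0 to 1 with H2S (without 4_8, 6.51%). The cause was not tested. The G1 median with air was -0.131 in the mice numbered 1 to 12, and with H2S it ran from -0.0683 to 0.0300 (without 4_8) when each mouse was left out. The number of mitosis genes with a larger SD in both ventilated groups ran from 10 (without 6_2) to 16, an alternative chosen after seeing the data.

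Signs turned only for differences that had not passed, among them Bub1 with H2S (-0.20 as reported) and, between the ventilated groups, Bub1 (0.17), Aurka and Cdkn2d (0.14 each). Between the ventilated groups, Rbl1 was 0.0583 with array weights, 0.00224 with median centring and 0.122 in the mice numbered 20 to 28, Tfdp2 was -0.0044 with quantile normalization again, and Mcm2 was 0.000147 with runs of 4 as a replicate block and 0.00794 in the mice numbered 1 to 12. When each mouse was left out, Rbl1 ran from -0.0586 to 0.0684, Tfdp2 from -0.056 to 0.0827 and Mcm2 from -0.0844 to 0.0185. Bub1 was -0.0174 in the mice numbered 1 to 12, and in those numbered 20 to 28 Ccnd2 was -0.0895, Aurka -0.0108, Cdkn2d -0.0373 and Lin52 0.00106. Against control, Nusap1 with air was -0.0361 in the mice numbered 1 to 12 and ran from -0.121 (without 6_2) to 0.0707 when each mouse was left out. In the mice numbered 20 to 28, Pcna with air was -0.0155 and Bub1 with H2S 0.0176.

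Each called regulator lost its call in the mice numbered 20 to 28 alone, 2 per group. In those mice only 0 of 28361 probes passed with air and 2 with H2S. This loss therefore cannot set the regulators apart from other genes, though it is counted among the 28 alternatives. Of these alternatives, Tob2 lost its call in 17, Cdkn2d in 14, Rfc3 in 13 and Sesn1 in 11. Tfdp2 and Sesn2 with air lost theirs in 9 each and Lin52 with H2S in 6. Every other call was lost in at most 3.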
